A study of Mus musculus with 6 samples.

Results

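N6-methyladenosine (m6A) peaks were examined on the transcripts of the enzymes that place and remove the mark itself: 8 subunits of the writer complex (Mettl3, Mettl14, Wtap, Virma, Zc3h13, Cbll1, Rbm15 and Rbm15b) and the 2 demethylases Fto and Alkbh5. Peaks were taken by gene name from the authors' 2 deposited tables. They numbered 34 of the 24127 peaks that compare ClpP cKO with WT and 27 of the 23681 that compare ClpX cKO with WT, 61 of 47808 in all. Mettl3 had no listed peak in either table, so 9 of the 10 genes had a value.

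The material was male germ cells of mice, labelled as spermatocytes, at postnatal day 35. The groups were a knockout of ClpP, a knockout of ClpX (each called cKO, made with Stra8-Cre) and wild type (WT). Stra8-Cre drives recombination in male germ cells, so the deletion is not directed at somatic cells of the testis. In mitochondria ClpX unfolds proteins and feeds them to the peptidase ClpP. Each genotype had 1 immunoprecipitated (IP) library, enriched for m6A, and 1 input library, so there is no replicate error and no replicate check. Both comparisons used the same WT libraries.

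Most m6A in messenger RNA is placed in the nucleus by METTL3, the catalytic subunit, paired with METTL14, which helps to bind the RNA. WTAP, VIRMA, ZC3H13, CBLL1 (also called HAKAI) and the RNA-binding proteins RBM15 and RBM15B hold this pair in the nucleus and direct it to its sites. FTO and ALKBH5 are oxygenases that remove the methyl group, and in mice loss of ALKBH5, or of METTL3 and METTL14 in germ cells, is known to impair spermatogenesis. The values below describe the mark on the messenger RNAs of these proteins, not the amount or activity of the proteins.

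For each peak the tables give a fold enrichment (IP over input, 1 value for all libraries of a table) and a log2 fold change between genotypes. A positive log2 fold change is read as higher in the knockout because the knockout comes before WT in the name of each table. No other source settles this, and if the ratio runs the other way all signs turn. A peak is called where the deposited adjusted p of its difference lay under 0.05, and such a call compares single libraries. Among strongly supported peaks with an absolute log2 fold change under 0.05, the median deposited p was 0.493 (ClpP) and 0.516 (ClpX), where a two-tailed p would lie near 1. Calls that are lost when the p is doubled are named below. Depth is unknown. Coordinates are on GRCm38 (mm10).

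The label of the cells was checked against marker genes, for which a missing peak does not show missing RNA. Of 12 genes of spermatocytes and later germ cells 11 carried a peak in the ClpP comparison and 9 in the ClpX comparison, with Ccna1 absent from both and Sycp3 and Hormad1 absent from the second. Their 23 peaks in ClpP cKO had 5 higher and 6 lower calls, and their 14 in ClpX cKO had 4 higher and 2 lower. Genes of other somatic cells (steroid-producing, muscle-like, vessel and immune cells) carried a peak in 3 of 9 cases for ClpP and 6 of 9 for ClpX, and Acta2, Pecam1 and Ptprc had none in either. Of the peaks of that list 3 of 8 were called higher in ClpP cKO and 5 of 12 in ClpX cKO, with log2 fold changes from -0.44 to 1.73 and from -0.71 to 3.5, and 0 were called lower. Over all peaks of ClpP cKO 6.74% were higher calls and 12.8% lower ones, and over those of ClpX cKO 15.1% higher and 5.0% lower, which is the background for the marker lists too. Spermatogonial markers had peaks on 5 of 5 genes, with 1 higher and 1 lower call among 11 peaks in ClpP cKO, and 5 higher and 0 lower among 8 in ClpX cKO. Sertoli cell markers had 1 lower call in each comparison, of 7 and 6 peaks, and none listed on Amh and Cldn11. The part of these cells in the values below was not tested, and in bulk libraries a different makeup of cells and a different mark within a cell cannot be told apart. Of the targeted genes, Clpx carried 1 peak in each comparison and Clpp 1 in the ClpX comparison, and 0 of these were called.

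The number of listed peaks differed among the members, from 0 on Mettl3 and 1 per table on Mettl14 to 8 on Virma. Virma had 8 listed peaks in the ClpP comparison, a number reached by 0.352% of its 13334 genes, and 5 in the ClpX comparison. Zc3h13 had 6 and 5 peaks, and Alkbh5 had 5 and 4. The median was 3 peaks per member gene in both comparisons, against 1 per gene over each table. At least 3 peaks were listed on 7 of the 9 measured members (ClpP) and on 5 of 9 (ClpX), against 19.5% of all genes in each table. Neither gene length nor RNA level was matched.

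In ClpP cKO most called member peaks were lower than in WT, and they lay on Virma, Rbm15b, Rbm15, Cbll1, Fto and Alkbh5. Of the 34 peaks, 8 were called lower and 2 higher. Over all peaks 12.8% were called lower, 6.74% higher and 19.6% in either direction, against 29.4% of the member peaks. By gene, 6 of the 9 members had a call, 6 of them a lower and 2 a higher one, where 28.8% of all genes had a call, 19.9% a lower and 10.7% a higher one. Member genes carry more peaks than most, so they had more chances of a call. The median log2 fold change of the member peaks was -0.19 (range -2.26 to 3.0), against -0.03 over all peaks. Both higher calls, on Virma and Cbll1, were weakly enriched peaks (fold enrichment 2.08 and 1.92 in the authors' deposited table). Of the lower calls, those on Alkbh5 (2.31), Fto (4.66) and 1 on Virma (5.9) also lay under the median of 8.23 over all peaks. The other lower calls had 9.85 to 34.1. Mettl14, Wtap and Zc3h13 had no call.

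In ClpX cKO higher calls lay on Alkbh5 (3), Cbll1 (2) and Rbm15 (1), and lower calls on Virma (2), Rbm15, Zc3h13 and Wtap (1 each). A gene with 1 call cannot carry both directions, so these counts do not show a split by gene. The Wtap call was lost when the p was doubled (adjusted p 0.0501). Of the 27 peaks, 6 were called higher and 5 lower. Over all peaks 15.1% were called higher, 5.0% lower and 20.1% in either direction, against 40.7% of the member peaks. By gene, 6 of the 9 members had a call, 3 a higher and 4 a lower one, where 29.3% of all genes had a call, 22.2% a higher and 8.42% a lower one. Rbm15 had 1 call each way, and Mettl14, Rbm15b and Fto had 0. The median log2 fold change of member peaks was -0.13 (range -2.08 to 1.83), against 0.24 over all peaks. With that 0.24 taken off and calls made again, 4 member peaks were higher and 7 lower, against 10.9% and 7.8% of all peaks (18.7% in either direction), so the totals of higher and lower calls depend on how the libraries are scaled. Alkbh5 and Cbll1 then held all 4 higher calls, and the lower calls on Virma, Zc3h13 and Wtap remained. Rbm15 lost its higher call and kept its lower one, and Zc3h13 and Rbm15b each gained a lower call.

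Stricter rules thinned the calls. In ClpP cKO an adjusted p under 0.01 left 0 higher and 6 lower calls, where 4.06% and 9.66% of all peaks passed (13.7% in either direction). Asking for a log2 fold change of 1 or more in size left 2 of the 34 member peaks called, a smaller share than the 9.15% of all peaks. Doubling the p left 1 higher and 7 lower, against 5.23% and 11.2% (16.4% in either direction). Taking off the median changed no ClpP call among the members, with 2 higher and 8 lower against 7.29% and 12.1% of all peaks (19.4% in either direction). In ClpX cKO an adjusted p under 0.01 left 5 higher and 4 lower calls, against 11.3% and 2.78% of all peaks (14.1% in either direction). The minimum size of 1 left 6 calls, against 13.7% of all peaks, and doubling the p left 5 higher and 4 lower, against 13.1% and 3.84% (17.0% in either direction).

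**Figure D1:**
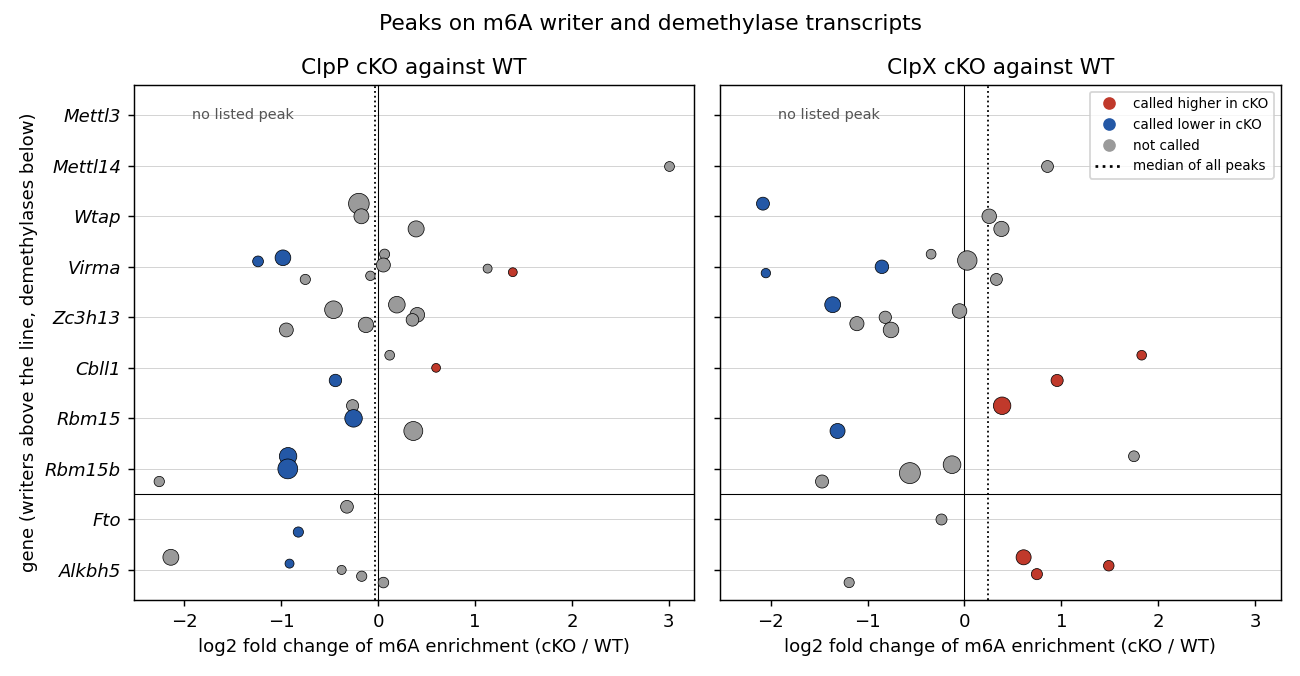
Log2 fold change of m6A enrichment (x axis, knockout over WT) of every listed peak of the 10 genes (y axis), with ClpP cKO in the left panel and ClpX cKO in the right, each against WT. Each point is 1 peak, its area grows with fold enrichment, red and blue mark peaks called higher and lower, grey marks uncalled ones, and the dotted line is the median of all peaks. The 8 blue points at left lie on genes from Virma to Alkbh5, while at right Alkbh5 and Cbll1 hold 5 of the 6 red points.

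The core pair gave few values. Mettl14 (ENSMUSG00000028114, chromosome 3) had 1 peak in the ClpP comparison, at 123368596 to 123368746, which is 0.3 kb from the end of the RefSeq gene span. By the authors' deposited table its log2 fold change was 3.0, the highest of the member peaks, but it was not called (adjusted p 0.132). The single Mettl14 peak of the ClpX comparison lay at the other end of the gene, at 123385779 to 123385899, and had 0.85 in the authors' deposited table (adjusted p 0.671). Neither overlapped a peak of the other table, so no site of the catalytic pair could be compared.

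Wtap (ENSMUSG00000060475, chromosome 17), whose product anchors the catalytic pair in nuclear speckles, had 3 sites, all listed in both comparisons. From the start to the end of the gene the authors' deposited table gave log2 fold changes of -0.20, -0.17 and 0.39 in ClpP cKO, none called. In ClpX cKO these sites had -2.08, 0.26 and 0.38 by the authors' deposited table. The first of them, at 12975249 to 12980895, was the 1 called Wtap peak, lower in ClpX cKO in the authors' deposited table (adjusted p 0.0251). That call was lost when the p was doubled (adjusted p 0.0501). The fold enrichment of this site was 37.5 in the ClpP and 11.1 in the ClpX version of the authors' deposited table.

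Virma (ENSMUSG00000040720, chromosome 4) encodes the large scaffold that links the complex to sites near the stop codon and in the 3′ part of messages. Its best supported ClpP peak, at 11507075 to 11514102 in 3 blocks, was called lower in ClpP cKO at -0.98 by the authors' deposited table, a ratio of 0.506 (adjusted p 1.58e-15). The next, at 11516972 to 11521179, was called lower at -1.24 in the authors' deposited table (adjusted p 1.32e-06). The ClpX table lists 1 peak that overlaps both, at 11507075 to 11519399, which the authors' deposited table gives as 0.03 and uncalled. The lower calls of ClpX cKO fell on later sites. At 11526363 to 11527536 the authors' deposited tables give -0.85 in ClpX cKO (adjusted p 0.00692), and an uncalled 0.05 at the matching site in ClpP cKO. A site 1.27 kb from the end of the gene span, at 11549634 to 11549874, had -2.05 in ClpX cKO (adjusted p 0.00933) and an uncalled -0.08 in ClpP cKO in the authors' deposited tables. The called sites of the knockouts on this transcript were thus different ones. The 1 higher call of Virma, in ClpP cKO at 11545995 to 11546175, stood at 1.39 with a fold enrichment of 2.08 in the authors' deposited table (adjusted p 0.0437, or 0.0878 with the p doubled). It had no counterpart in the ClpX table, nor had the uncalled ClpP peak at 11528576 to 11528696. The paired sites at both ends of the gene were called in neither comparison.

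Zc3h13 (ENSMUSG00000022000, chromosome 14), whose product keeps the complex in the nucleus, had 5 sites listed in both tables and none called in ClpP cKO. There its 6 peaks ranged from -0.95 to 0.40 in the authors' deposited table. In ClpX cKO all 5 peaks had negative log2 fold changes, from -1.36 to -0.05, by the authors' deposited table. The peak at 75321697 to 75323824 was called lower at -1.36 in ClpX cKO (adjusted p 0.00603), and its ClpP counterpart had -0.46 (adjusted p 0.355), both from the authors' deposited tables. Just outside the threshold lay the peak at 75331751 to 75335962, with -1.11 in ClpX cKO by the authors' deposited table (adjusted p 0.0562). It passed when the median of all peaks was taken off.

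Cbll1 (ENSMUSG00000020659, chromosome 12), an E3 ubiquitin ligase of the complex, carried the highest called log2 fold change of the members in ClpX cKO. This peak, at 31487699 to 31491569, stood at 1.83 in the authors' deposited table, a ratio of 3.56 (adjusted p 5.01e-21). Of the 2 ClpP peaks that overlap it, the one at 31487729 to 31487998 was called higher at 0.60 and the other, at 0.12, was not, by the authors' deposited table (adjusted p 0.0195 and 0.553). The called one had a fold enrichment of 1.92 in the authors' deposited table, the lowest of all member peaks. The neighbouring site, at 31487011 to 31487609, was called higher in ClpX cKO at 0.96 in the authors' deposited table (adjusted p 0.000692). Its counterpart, 31486981 to 31487609, was called lower in ClpP cKO at -0.44 by the authors' deposited table (adjusted p 0.0263). On the opposite strand the predicted gene Gm29542 has a peak that shares bases with these, and the authors' deposited tables give it -0.47 in ClpP cKO and 0.90 in ClpX cKO, both called. No source used here says whether the libraries keep strand, so reads of Cbll1 and Gm29542 cannot be told apart.

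Rbm15 and Rbm15b encode related RNA-binding proteins that recruit the complex to messages and to the Xist RNA. On Rbm15 (ENSMUSG00000048109, chromosome 3) a long peak of 2396 bases, at 107330231 to 107332626, was called lower in ClpP cKO by a small amount, -0.25 in the authors' deposited table (adjusted p 0.0158). The ClpX table joins it with its upstream neighbour into 1 peak of 3443 bases, 107330231 to 107333673, which the authors' deposited table has higher at 0.39 (adjusted p 0.000724). That value is 0.15 above the median of all ClpX peaks, and the call was lost when the median was taken off. The other Rbm15 site, at 107325810 to 107327179, was called lower in ClpX cKO at -1.31 (adjusted p 0.00288), and its counterpart in ClpP cKO had an uncalled 0.36, both in the authors' deposited tables.

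The Rbm15 peaks reach over an annotated start of the gene, and a piece of the window around that start is shown. It was chosen because it comes from the 1 start window of a member that lay wholly inside listed peaks. RefSeq windows (250 bases before to 50 after a start, GRCm38.p6) were at hand for 8 of the 10 members. The Rbm15 window runs from 107333240 to 107333539 on the minus strand and lies in a peak in both tables. In the ClpP comparison that is a separate peak of 929 bases, with an uncalled -0.26 in the authors' deposited table (adjusted p 0.375). A Rbm15b window shared 17 bases with the uncalled ClpX peak at 106887309 to 106887428, and the windows of the other 6 genes shared 0. Forms of the m6A consensus were searched on both strands as GGACT or GAACT or AGACT or AAACT, which cannot match at the same position. The transcribed strand of the Rbm15 window held 2 matches and the other strand 1.

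Rbm15, chr3:107333420-107333449, minus strand: aacgcctGAACTgatgtccAGACTtcccga

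Capitals mark the 2 matches in this piece of 30 bases, which lies upstream of that annotated start but inside the RefSeq gene span. At least 1 match on the transcribed strand is found in 69.0% of the 32851 RefSeq windows, and on either strand in 89.3%, so a match is common and does not locate a methylated base.

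On Rbm15b (ENSMUSG00000074102, chromosome 9) 2 listed peaks lie over one another, 1 of 2002 bases at 106884173 to 106886174 and 1 of 682 bases at 106884751 to 106885619. Both were called lower in ClpP cKO, each at -0.93 in the authors' deposited table (adjusted p 3.98e-13 and 6.03e-05). They share 682 bases and so are not independent. Their ClpX counterparts had -0.13 and -0.56 by the authors' deposited table and were not called (adjusted p 0.428 and 0.0813). When the median of all peaks was taken off, the second was called lower in ClpX cKO as well. With fold enrichments of 25.2 to 38.8 in the authors' deposited tables, this was the most enriched stretch of the gene. A site further along, at 106882471 to 106882680 in the ClpP table, had -2.26 in ClpP cKO and -1.47 in ClpX cKO by the authors' deposited tables, neither called. The remaining ClpX peak, at 106887309 to 106887428 and upstream of the gene span, had an uncalled 1.75 in the authors' deposited table (adjusted p 0.535). It overlapped no ClpP peak.

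**Figure D2:**
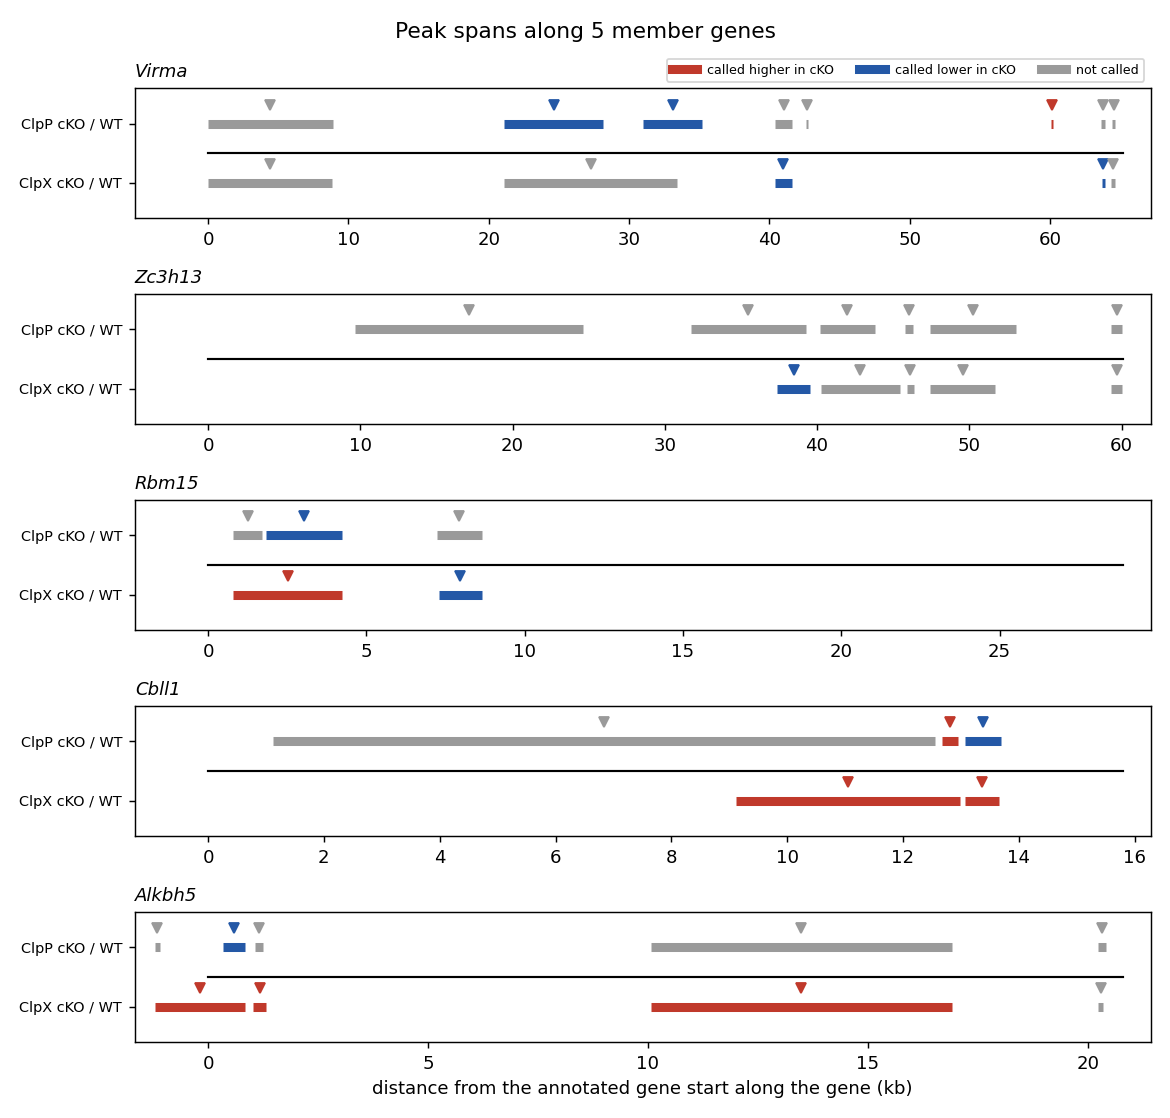
Spans of all listed peaks along Virma, Zc3h13, Rbm15, Cbll1 and Alkbh5, in kb from the RefSeq gene start in the direction of transcription (x axis), with ClpP cKO above ClpX cKO in each panel. Bars run from the first to the last base of a peak and include any gap between its blocks, triangles mark the middle, and colour gives the call. On Alkbh5 the blue bar at 0.34 to 0.85 kb in ClpP cKO stands over a red bar in ClpX cKO, and on Virma the blue bars of the 2 knockouts lie at different sites.

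Of the demethylases, Fto had a lower call in ClpP cKO, and Alkbh5 had 1 lower call in ClpP cKO and 3 higher calls in ClpX cKO. FTO also acts on methyl marks next to the cap and in small nuclear RNAs. The main Fto peak (ENSMUSG00000055932, chromosome 8, 91409226 to 91441676) covers 630 bases in 2 blocks, with the same ends in both tables. It had -0.82 in ClpP cKO (adjusted p 6.61e-06) and an uncalled -0.24 in ClpX cKO (adjusted p 0.351) by the authors' deposited tables. The other Fto peak, of 121 bases in 3 blocks from 91313585, was listed for ClpP cKO alone and had an uncalled -0.32 in the authors' deposited table.

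Alkbh5 (ENSMUSG00000042650, chromosome 11) encodes a demethylase that is abundant in mouse testis. Its peak at 60538020 to 60538529, 0.34 kb after the RefSeq start, was called lower in ClpP cKO at -0.92 by the authors' deposited table, a ratio of 0.530 (adjusted p 0.000224). The fold enrichment of this ClpP peak was 2.31 in the authors' deposited table, against 17.1 for the ClpX peak that overlaps it. The overlapping ClpX peak, 60536471 to 60538529, also holds a block that begins upstream of the RefSeq start and by the authors' deposited table stood higher at 0.61, which was called (adjusted p 0.0288). That call was lost when the p was doubled (adjusted p 0.0581) and when the median of all peaks was taken off. In the ClpP table the upstream block is a peak of its own, with an uncalled -2.14 and a fold enrichment of 19.9 in the authors' deposited table. The next 2 sites were called higher in ClpX cKO, at 1.49 (60538709 to 60539008, adjusted p 2.29e-09) and 0.75 (60547739 to 60554591, adjusted p 6.17e-05) by the authors' deposited table. Their counterparts in ClpP cKO had -0.38 and -0.17 in the authors' deposited table, neither called. The second of these sites has the same 540 bases in both tables. The last site, near the end of the gene, had -1.19 in ClpX cKO and 0.05 in ClpP cKO by the authors' deposited tables and was called in neither.

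Matching by position gave 25 pairs of member sites, 4 of them with identical start and end. In ClpP cKO alone 4 of the pairs were called, in ClpX cKO alone 8, in neither 10 and in both 3. Of the 18738 pairs over all genes 12.5% were called in ClpP cKO alone, 11.6% in ClpX cKO alone, 66.9% in neither and 8.98% in both, with 4.07% called in opposite and 4.92% in the same direction. The 3 member pairs called in both, on Cbll1, Rbm15 and Alkbh5, had opposite signs, and each loses a call under at least 1 of the alternatives above (Cbll1 in ClpP cKO, with an adjusted p of 0.0525 once the p is doubled). None of the 25 best mutual pairs was called in the same direction. Among all 31 overlaps of member peaks 1 was, the Cbll1 peak at 31487729 to 31487998 in ClpP cKO with the one at 31487699 to 31491569 in ClpX cKO, both called higher. Both comparisons share the WT libraries and a difference between the knockouts was not tested, so these are values side by side. A further 5 ClpP peaks and 2 ClpX peaks overlapped no peak of the other table, which is 14.7% and 7.41% of the member peaks, against 18.6% and 15.8% of all peaks.

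**Figure D3:**
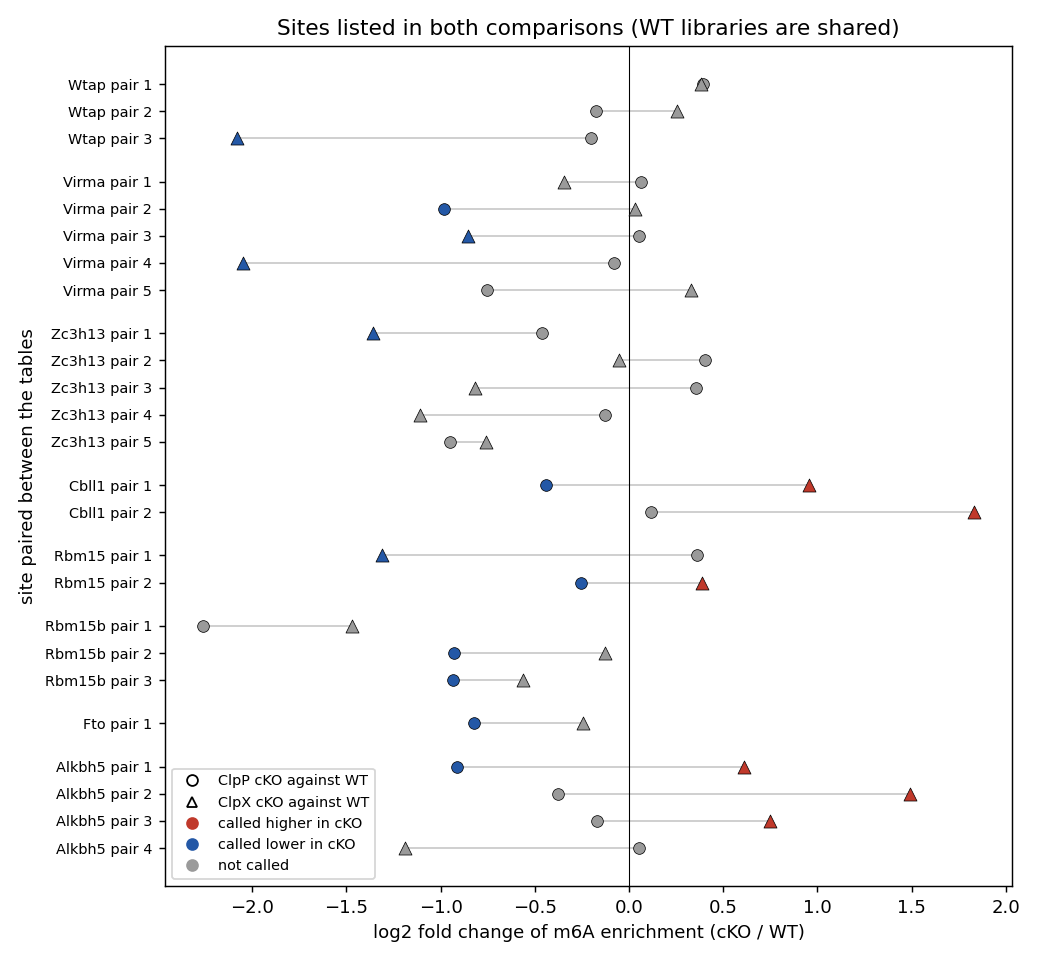
Log2 fold change (x axis, knockout over WT) of the 25 member sites paired between the tables (y axis), by gene and numbered by position on the chromosome. Circles are ClpP cKO and triangles ClpX cKO, each against WT, and colour gives the call. A blue circle faces a red triangle at 3 sites, on Cbll1, Rbm15 and Alkbh5.

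Member peaks were somewhat more enriched than peaks in general and covered more bases. Their median fold enrichment in the authors' deposited tables was 10.025 in the ClpP comparison and 11.5 in the ClpX comparison, against 8.23 and 8.90 over all peaks. A median member peak covered 540 bases in each comparison, against 301 and 300 over all peaks. More than 1 block was found in 16 of 34 and 14 of 27 member peaks, against 29.7% and 27.5% of all peaks. Over all peaks the log2 fold change moved with enrichment. In ClpX cKO its median was 0.75 among the 5921 least enriched peaks and -0.23 among the 5920 most enriched ones, with 3.67% called higher and 10.4% lower. Of the 11 member peaks among those 5920, there were 2 higher and 2 lower calls. Among the 5921 least enriched, 30.8% were called higher and 1.45% lower, and the 3 member peaks there had 1 higher and 1 lower call. Between fold enrichments of 4.39 and 8.9, 17.8% of all ClpX peaks were called higher and 2.99% lower. The 7 member peaks there had 2 higher calls, both on Alkbh5, and 0 lower ones. Between 8.9 and 15.4, 7.94% of all ClpX peaks were called higher and 5.19% lower. The 6 member peaks there had 1 higher and 2 lower calls. In ClpP cKO 13 member peaks lay among the 6032 most enriched, of which 4 were called lower and 0 higher, against 12.3% and 2.85% of those 6032 peaks. The 4 lower calls include both overlapping Rbm15b peaks, which are not independent. Among the 6032 least enriched ClpP peaks 14.4% were called higher and 12.3% lower, and the 8 member peaks there had 2 higher and 1 lower call. Between 4.08 and 8.23 the shares were 6.47% and 13.9%, with 0 higher and 2 lower calls among 7 member peaks. Between 8.23 and 14.5 they were 3.27% and 12.9%, with 0 higher and 1 lower call among 6.

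**Figure D4:**
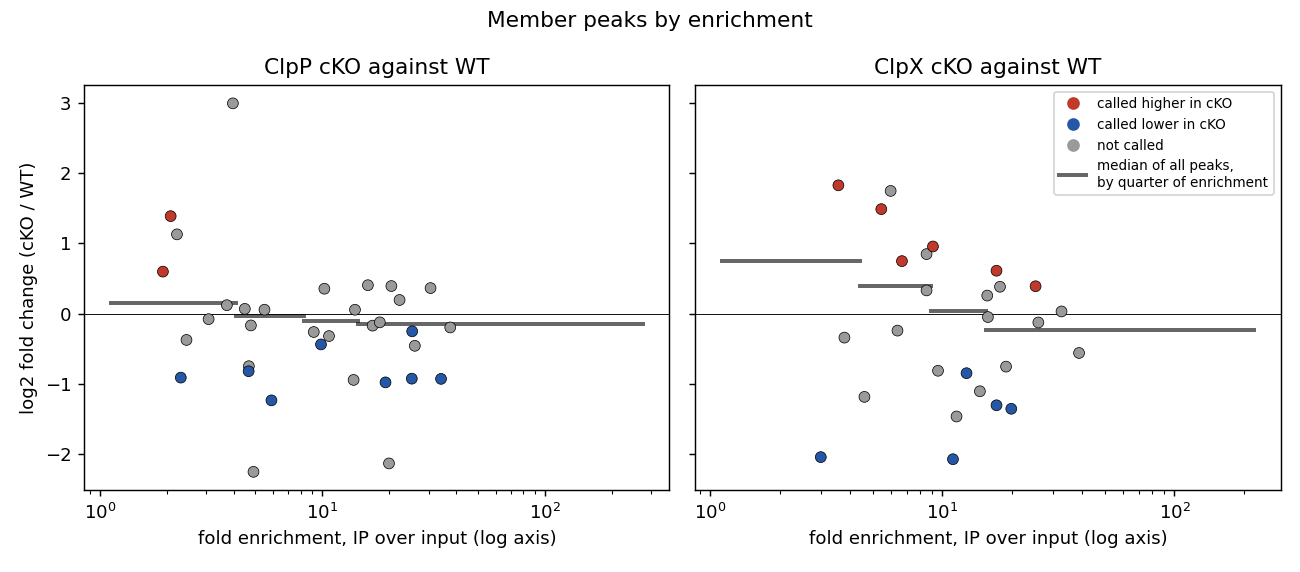
Log2 fold change (y axis, knockout over WT) of member peaks against their fold enrichment (x axis, log scale), with ClpP cKO at left and ClpX cKO at right. Points are peaks coloured by call, and grey bars give the median of all peaks of the table in each of 4 equal classes of enrichment. In ClpX cKO the bars lie at 0.75 for the least and -0.23 for the most enriched class, and called member peaks lie on both sides of them.

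Other genes of the m6A pathway are given for comparison. Of 14 reader genes, whose products bind m6A, 13 carried 21 peaks in the ClpP comparison, with 1 called higher and 5 lower, and 12 carried 23 peaks in the ClpX comparison, with 3 called higher and 3 lower. Beside these stand 6.74% higher and 12.8% lower of all ClpP peaks, and 15.1% higher and 5.0% lower of all ClpX peaks. Igf2bp2 had no listed peak in either table, and Ythdc2 none in the ClpX table. The cytoplasmic readers Ythdf1, Ythdf2 and Ythdf3 were called lower in ClpP cKO at -0.86, -0.71 and -0.94 by the authors' deposited table. In ClpX cKO Ythdf2 and Ythdf3 were called lower at -0.29 and -0.54 by the authors' deposited table, and Ythdf1 was not called. The nuclear reader Ythdc1 was called higher in ClpP cKO at 1.33, on a peak that shares bases with Gm43055, and lower in ClpX cKO at -1.11 on another site, by the authors' deposited tables. Prrc2a had 2 peaks called lower in ClpP cKO, at -0.81 and -0.43, and 2 called higher in ClpX cKO, at 0.79 and 1.34, in the authors' deposited tables. Of these only the peaks at -0.43 and 0.79 overlap in position, and the one at 1.34 had a fold enrichment of 1.87. Hnrnpc, a nuclear RNA-binding protein, was called higher in ClpX cKO at 1.04 by the authors' deposited table. Of 6 genes for other methyltransferases and their partners 4 carried peaks and Mettl5 and Trmt112 none, and the 1 call was Mettl4, lower in ClpP cKO at -1.05 in the authors' deposited table (fold enrichment 1.9).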

How the data were processed

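m6A-seq libraries (1 IP and 1 input each of ClpP cKO, ClpX cKO and WT, grouped by sample title) were analysed from 2 tables of the authors' own comparisons. The submitters' processing notes name GRCm38 (mm10). No source used here names the aligner, the peak caller or the depth scaling. Per the file headers, the values are a p-value per peak, scores that are the log10 of p-values and adjusted p-values of the peak and of the difference, a fold enrichment (a linear ratio) and a log2 fold change. The deposited adjusted p lay within 0.05 (log10) of a Benjamini-Hochberg adjustment over the table for 99.38% (ClpP) and 99.29% (ClpX) of peaks, and the largest p of a difference was 0.778. Listed peaks had an adjusted peak p of at most 0.0427, and other sites are not analysed here.

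Peaks were called at an adjusted p under 0.05 and paired between tables by at least 1 shared base of their blocks on the same strand, keeping best mutual pairs (Python 3.11.15, pandas 2.3.3, scipy 1.17.1). The pairing was tested on simulated data. To call peaks again after the median was taken off, the error of a peak was its log2 fold change over the normal quantile of its p, read as one-tailed, and peaks with a p of 0.45 or more stayed uncalled. No test across replicates was possible. Named were all 10 members with their peaks, called genes of the lists of other m6A genes, listed genes with no peak, and Clpp and Clpx. Gm29542 and Gm43055 were named because their peaks share bases with peaks of named genes. The members and lists were chosen with earlier results of these data known.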

Additional observations from a re-analysis of the deposited data

Results flagged for a closer look

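At 3 of the 25 paired sites both comparisons were called and had opposite signs, against 4.07% of the 18738 pairs over all genes. All 3 were lower in ClpP cKO and higher in ClpX cKO, the directions in which calls over all peaks lean. Of all ClpP peaks 12.8% were called lower and 6.74% higher, and of all ClpX peaks 15.1% higher and 5.0% lower. The difference between the knockouts was not tested, and each knockout is 1 set of libraries. The Cbll1 site had -0.44 in ClpP cKO and 0.96 in ClpX cKO in the authors' deposited tables, and doubling the p took the ClpP call to an adjusted p of 0.0525. The Rbm15 site had -0.25 in ClpP cKO and 0.39 in ClpX cKO in the authors' deposited tables, and the ClpX call was lost once the median of all peaks was taken off. The Alkbh5 site had -0.92 in ClpP cKO and 0.61 in ClpX cKO in the authors' deposited tables, and the ClpX call was lost under both alternatives. The paired peaks also differ in extent, with 2396 bases in the ClpP and 3443 in the ClpX table for Rbm15, and 510 and 719 for Alkbh5. The Alkbh5 peaks differ in fold enrichment as well, with 2.31 in the ClpP and 17.1 in the ClpX comparison.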

How the results depend on the processing

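No paired analysis was possible because each group has 1 library, and for the same reason no library could be left out. Taking off the median and calling again, doubling the p, and counting the overlapping Rbm15b peaks once were chosen after the data were seen; the last left 7 lower calls in ClpP cKO and the ClpX counts as they were. In ClpP cKO, an adjusted p under 0.01 left 6 calls (0 higher), against 13.7% of all peaks. A log2 fold change of 1 or more in size left 2 (1 higher, 1 lower), against 9.15% of all peaks. Higher calls went to 1 without peaks that share bases with another gene, without peaks of fold enrichment under 2, and with the p doubled. With the p doubled 5.23% of all peaks were called higher. For the other 2 settings, and with the Rbm15b peaks counted once, no share over all peaks was taken, so those counts have no background. In ClpX cKO, a log2 fold change of 1 or more in size left 6 calls, 2 of them higher, against 13.7% of all peaks in either direction. The other counts of calls stayed within 1.5 times. The median log2 fold change of member peaks was negative under each alternative run. For ClpP cKO it was -0.82 over genes at their peak of smallest p and -0.052 over genes at the mean of their peaks. For ClpX cKO it was -0.37 with the median of all peaks taken off, and -0.24 over genes by either rule and without peaks that share bases with another gene. Paired sites numbered 25 when most of the shorter peak had to be shared and 31 with every overlap counted, of which 1, on Cbll1, was called higher in both. The cause of these shifts was not tested beyond the fewer peaks counted. Depth per library is unknown, so weakly supported peaks, such as both Mettl14 peaks, set no limit.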
